A study of Rattus norvegicus with 5 samples.

Results

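The genes described here are 9 rat heat shock genes, chosen by name: the small heat shock proteins Hspb1 and Cryab, the 40 kDa co-chaperone Dnajb1, the 60 kDa chaperonin Hspd1 with its lid Hspe1, the 90 kDa chaperone Hsp90aa1, the 110 kDa protein Hsph1, and the stress-induced genes Bag3 and Zfand2a. The choice was made with earlier results of these data known. A probe was assigned to a gene when its RefSeq accession belonged to that gene, and the brightest probe stood for it. Of the 9 genes, 8 had such a probe, all 8 were well above background on all 5 arrays, and Dnajb1 matched none and has no value here. They stand beside 18899 features tested, 11091 of them named genes. The set is called cytosolic, but Hspd1 and Hspe1 are known as mitochondrial proteins.

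All samples were grafts of the rat glioma line C6-L grown in BALB/c nu/nu nude mice, which lack a thymus; the labels give an age of 6 weeks. RNA came from 3 metastatic lung nodules and 1 γ-irradiated primary tumour, each taken 6 weeks after the irradiation, and from 1 primary tumour that was not irradiated, taken 6 weeks after the cells were grafted. The non-irradiated primary is thus dated from another event than the others, so irradiation and time since grafting cannot be told apart. Each sample was 1 single-colour (Cy3) Agilent array, so each primary is a lone measurement, and no label states that the nodules are from different animals. The p-values therefore measure only the spread between the 3 nodules, which may be technical, and assume that a primary varies like a nodule.

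Heat shock proteins are chaperones: they hold, refold or hand on proteins that have lost their shape. Small heat shock proteins bind unfolding proteins without using ATP, the 70 kDa proteins fold them in cycles started by J-domain partners of 40 kDa and reset by 110 kDa exchange factors, and the 90 kDa proteins mature kinases and receptors. Many of these genes are switched on by heat shock factor 1 (HSF1), which binds repeats of the letters GAA and their complement TTC, called heat shock elements. Cryab and Hspb1 are also abundant in muscle, and Cryab in glial cells.

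The HSF1-type letters near the starts of these genes are shown first, since HSF1 targets are the group compared below. RefSeq promoter windows of the GRCr8 build, from 250 bases before to 50 after the transcript start, were at hand for 7 of the 9 genes, without Cryab and Hsp90aa1. A run of 3 units (GAA, TTC and GAA, or TTC, GAA and TTC, with NN between neighbours; each run is the reverse complement of the other, and both strands were searched) stood in 3 of the 7 windows, those of Hsph1, Hspd1 and Hspe1, against 0.798% of all 33469 windows. The shorter GAANNTTC or TTCNNGAA (2 units, both palindromes, and contained in every 3-unit match) stood in all 7, against 15.9% of all windows. Hspd1 and Hspe1 are divergent neighbours whose starts lie 290 bases apart, and the same 18-base element lies in both windows, so they count as 1 site. The stretches below run 5′ to 3′ on the strand of the named gene, end before its start, and have the matched letters in capitals.
Hsph1, chr12:10427312-10427364, plus strand: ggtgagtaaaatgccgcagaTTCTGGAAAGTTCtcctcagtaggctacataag
Hspe1, chr9:64084242-64084299, plus strand: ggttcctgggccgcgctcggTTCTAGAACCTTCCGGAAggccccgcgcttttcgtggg
Hspb1, chr12:26432383-26432450, minus strand: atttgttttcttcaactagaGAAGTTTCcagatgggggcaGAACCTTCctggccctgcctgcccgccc
Bag3, chr1:192533308-192533355, plus strand: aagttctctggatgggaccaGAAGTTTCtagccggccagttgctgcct
Zfand2a, chr12:20275220-20275267, plus strand: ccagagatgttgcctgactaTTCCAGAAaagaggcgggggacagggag
The 3-unit run of Hsph1 starts 36 bases before the transcript start, and that of Hspe1 starts 65 bases before it. Hspb1 holds 2 separate 2-unit matches, at 129 and 109 bases, Bag3 holds 1 at 132 and Zfand2a 1 at 210. These are letter matches, not measured binding.

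**Figure D1:**
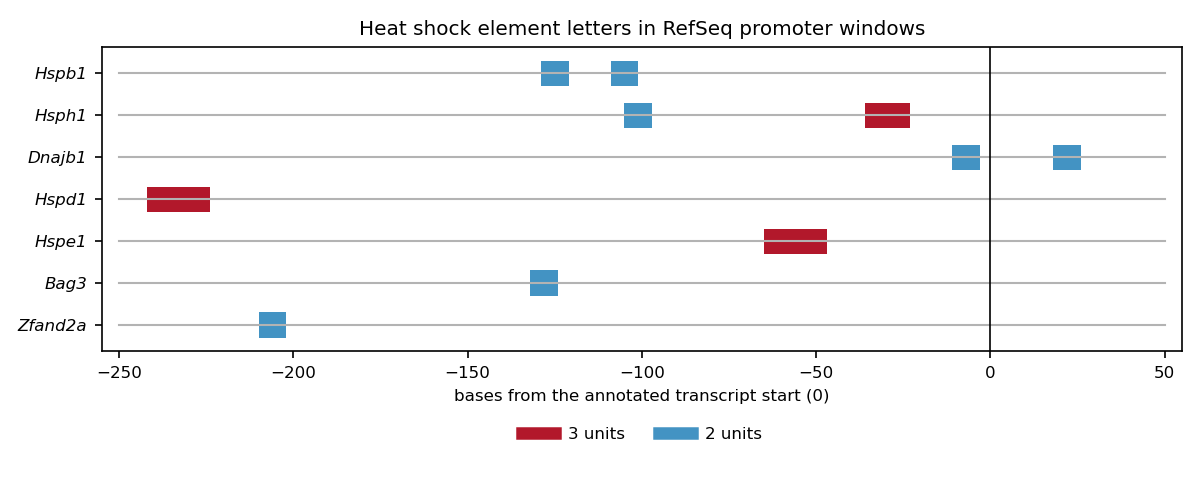
Positions of heat shock element letters in the RefSeq promoter windows of 7 genes (rows); the horizontal axis gives bases from the annotated transcript start. Red blocks are runs of 3 units and blue blocks are matches of 2 units; red blocks appear for Hsph1, Hspd1 and Hspe1, and the last 2 show the same stretch of DNA from either side.

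Levels are log2 signals relative to the 75th percentile of the probes of the same array, so 0 is the level of a bright probe; a level of one gene is not compared with that of another. The order of the arrays differed between the 8 genes. Hspb1, Cryab and Hsp90aa1 were highest in the irradiated primary. Cryab, Hsph1, Hsp90aa1, Hspd1, Hspe1 and Bag3 were lowest in the non-irradiated primary. Zfand2a was highest in the non-irradiated primary. Hspd1, Hspe1 and Bag3 were highest in the nodules.

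**Figure D2:**
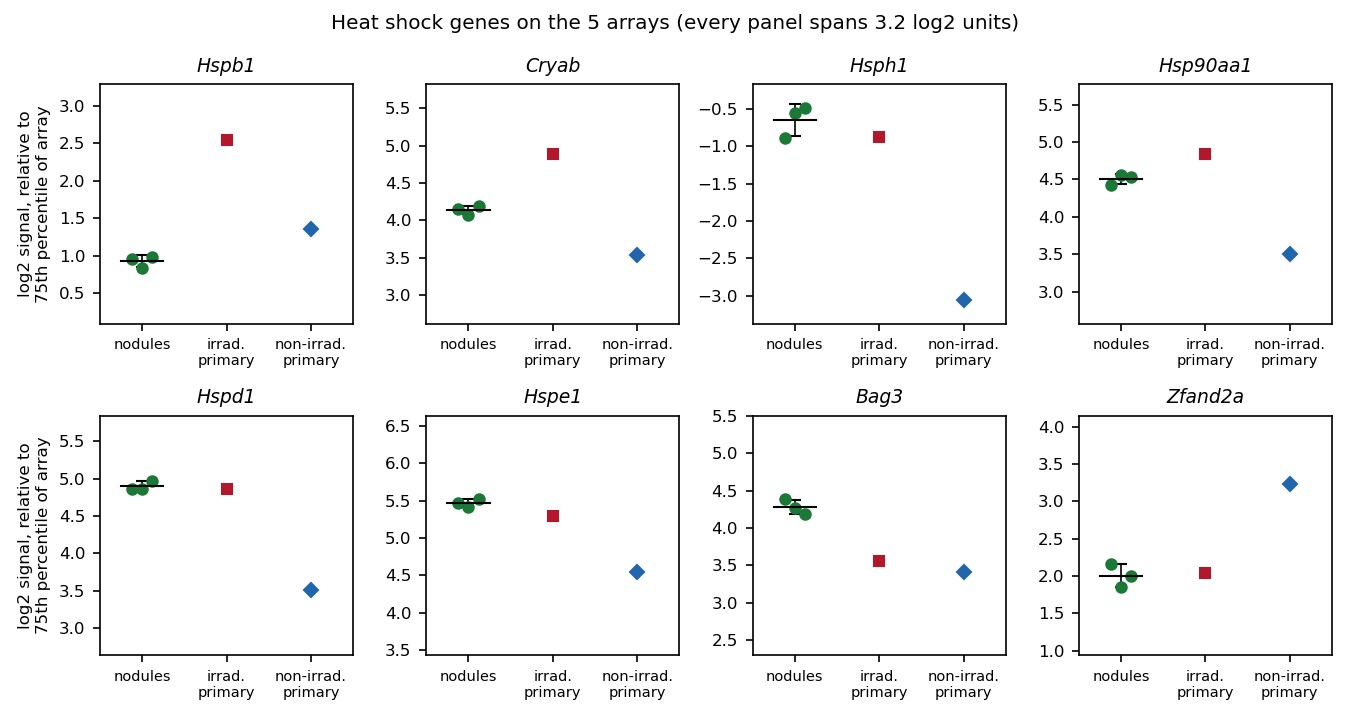
Level of each heat shock gene on each array (vertical axis, log2 signal relative to the 75th percentile of the array; every panel spans the same range). Green circles are the 3 nodules with their mean and SD, the red square is the irradiated primary and the blue diamond the non-irradiated primary; Hspb1 stands at 2.54 in the irradiated primary against 0.92 as nodule mean, and Hsph1 at -3.06 in the non-irradiated primary against -0.64.

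Of 8 small heat shock proteins tested, 2 fell in the nodules against the irradiated primary, Hspb1 and Cryab, and 6 did not pass. Hspb1, also known as HSP27, read 0.95, 0.84 and 0.98 in nodules 1, 2 and 3, 2.54 in the irradiated and 1.36 in the non-irradiated primary. All nodules lay below both primaries, and the irradiated primary stood highest. In limma Hspb1 fell by 1.62 (log2; SE 0.13, adjusted p = 0.0128) against the irradiated primary, where it was 3.07-fold higher. Against the non-irradiated primary its difference of -0.43 (95% interval -0.76 to -0.10) did not pass (adjusted p = 0.0772). Cryab, the αB-crystallin, read 4.16, 4.08 and 4.19 in the nodules, 4.90 in the irradiated and 3.54 in the non-irradiated primary. The nodules thus lay between the primaries, and their own range was 0.11. Cryab fell by 0.76 (log2) against the irradiated primary (SE 0.11, adjusted p = 0.046) and rose by 0.60 against the non-irradiated one (SE 0.11, adjusted p = 0.0326).

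Both small heat shock proteins are muscle proteins too. Of 17 skeletal muscle markers tested, 14 fell in the nodules against the irradiated primary, as Hspb1 and Cryab did (2.81% of all features fell). Against the non-irradiated primary 12 of the 17 fell (8.86% of all features), where Cryab rose and Hspb1 did not pass. The summed level of 18 skeletal muscle markers (each as signal over the 75th percentile) was 174 in the irradiated and 40.6 in the non-irradiated primary and 6.11 to 7.99 in the nodules. Of these markers 17 were well above background in each primary and 11 to 14 in the nodules. Myh2, Myh4 and Mybpc1 were well above background in the primaries alone and entered the test only through them. The counts of 14 and 12 thus depend in part on the filter. The part of muscle in the result was not tested, and fewer cells of a type and less RNA per cell cannot be told apart in whole tumours. The summed level of 13 heart markers was 55.2 in nodule 3 and 6.75 to 7.44 in the other nodules. Hspb1 and Cryab differed between nodules by at most 0.15 and 0.11, and the part of heart muscle was not tested. Among the other small heat shock proteins, 0 of 6 passed limma in either comparison. The muscle-restricted Hspb3, named because its difference from the irradiated primary was the largest of the 6, was tested only through the primaries. It was not well above background in the nodules and at least 8.08-fold lower there than in the irradiated primary (adjusted p = 0.0719). This bound sets the brighter mean against the nodule mean with each nodule raised to its lowest signal well above background. Against the irradiated primary Hspb7, Hspb9 and Hspb6 differed by -1.21, -0.41 and -0.14, and Hspb2 and Hspb8 by 0.13 and 0.087.

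Hsph1, Hsp90aa1, Hspd1 and Hspe1 passed against the non-irradiated primary and not against the irradiated one. Hsph1, the 110 kDa exchange factor, read -0.89, -0.56 and -0.49 in nodules 1, 2 and 3, -0.88 in the irradiated and -3.06 in the non-irradiated primary. The nodules overlapped the irradiated primary and all lay far above the other. Hsph1 was 5.34-fold higher in the nodules than in the non-irradiated primary, a rise of 2.42 (SE 0.22, adjusted p = 0.0115). Its difference from the irradiated primary was 0.23 (95% interval -0.33 to 0.80, adjusted p = 0.585).

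Hsp90aa1, the stress-inducible 90 kDa chaperone, read 4.43, 4.55 and 4.53 in the nodules, 4.84 in the irradiated and 3.51 in the non-irradiated primary. It rose by 1.00 against the non-irradiated primary (SE 0.12, adjusted p = 0.0145), a 2.00-fold difference. The nodules lay below the irradiated primary, at a difference of -0.33 that did not pass (adjusted p = 0.204). Its 3 probes gave 0.84, 1.00 and 1.00 against the non-irradiated and -0.42, -0.39 and -0.33 against the irradiated primary, so they did not disagree in sign. The constitutive partner Hsp90ab1 differed from the non-irradiated primary by 0.16 (95% interval -0.13 to 0.45) and did not pass (adjusted p = 0.364).

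The chaperonin and its lid both rose against the non-irradiated primary. Hspd1, the barrel, read 4.86, 4.86 and 4.97 in the nodules, 4.85 in the irradiated and 3.50 in the non-irradiated primary. Hspe1, the lid, read 5.48, 5.41 and 5.53 in the nodules, 5.29 and 4.54. Both genes lay above both primaries in all 3 nodules, although for Hspd1 the irradiated primary reached nearly the lowest nodule. Against the non-irradiated primary Hspd1 rose by 1.40 (SE 0.12, adjusted p = 0.0107) and Hspe1 by 0.93 (SE 0.12, adjusted p = 0.0156). The 2 probes of Hspe1 both gave 0.93. Against the irradiated primary the differences were 0.044 (95% interval -0.26 to 0.35) and 0.18 (95% interval -0.13 to 0.48), and neither passed.

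Bag3, a co-chaperone that links 70 kDa and small heat shock proteins and directs clients to autophagy, read 4.38, 4.27 and 4.19 in the nodules, 3.55 in the irradiated and 3.42 in the non-irradiated primary. All nodules lay above both primaries. The rise of 0.87 against the non-irradiated primary passed (SE 0.13, adjusted p = 0.0205), while the 0.73 against the irradiated primary did not (SE 0.13, adjusted p = 0.06). Zfand2a, a zinc finger protein tied to the proteasome, read 2.16, 1.85 and 2.00 in the nodules, 2.05 in the irradiated and 3.24 in the non-irradiated primary. The non-irradiated primary stood above all others, and Zfand2a fell by 1.23 in the nodules against it (SE 0.16, adjusted p = 0.0162). Nodules and irradiated primary overlapped, with a difference of -0.044 (95% interval -0.46 to 0.37, adjusted p = 0.902).

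**Figure D3:**
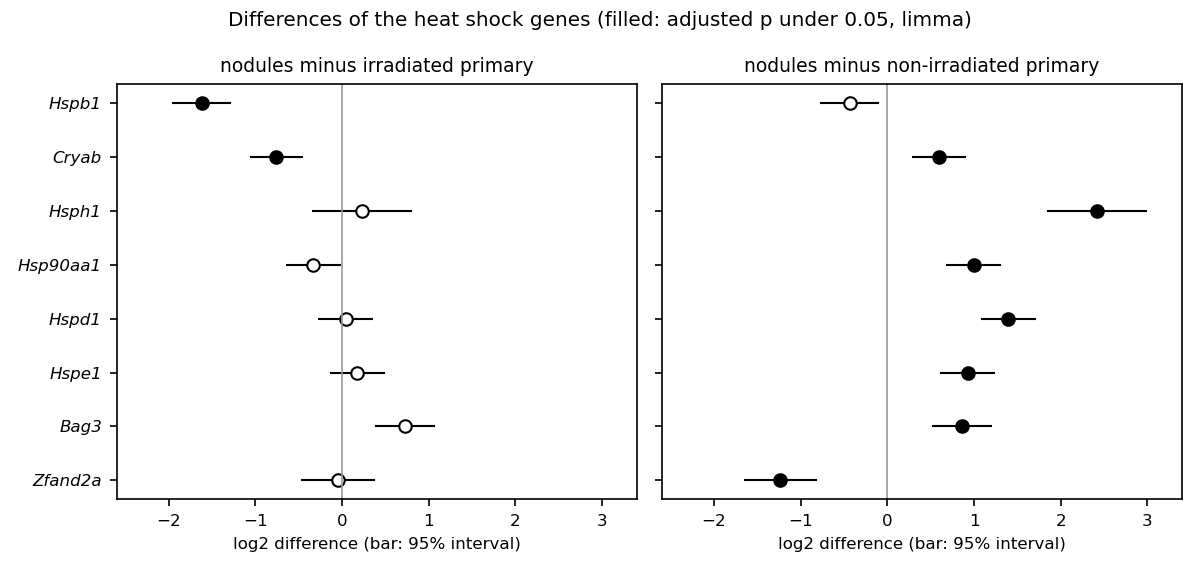
Log2 differences (horizontal axis) of the 3 nodules from the irradiated primary (left) and from the non-irradiated primary (right) for each gene (rows), with 95% intervals from limma. Filled circles passed at an adjusted p under 0.05: 2 genes on the left, both lower, and 7 on the right, of which Zfand2a alone is lower.

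Counted over the 8 measured genes, 0 rose and 2 fell against the irradiated primary, where 0.91% of all features rose and 2.81% fell (3.73% together). Against the non-irradiated primary 6 rose and 1 fell, where 9.74% of all features rose and 8.86% fell (18.6% together). Their median difference was 0.00014 and 0.90, beside 0.034 and 0.038 over all features. The comparisons share the 3 nodules. The genes were chosen with earlier results of these data known, so these shares are a description only. In 4 of 8 genes the nodules lay all above or all below both primaries, beside 41.5% of all features. The calls hung on the nodules used: without nodule 2 limma called 0 of the 8 in either comparison (smallest adjusted p = 0.0828 and 0.064, with 3 and 7 at an unadjusted p under 0.05). Without nodule 3 it called 0 against the irradiated and 2 against the non-irradiated primary, Hsph1 and Hspd1, and Cryab also lost its call against the irradiated primary in 5 other processing settings. Its call against the non-irradiated primary was lost without nodule 2 or 3, with array median scaling and without the intensity trend.

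The primaries were compared by their log2 difference without a test, as each is 1 array. Their times were also counted from different events. Irradiated over non-irradiated, 5 of the 8 genes were at least 2-fold higher (9.3% of all features) and 1 was at least 2-fold lower (7.12% of all features, 16.4% together). Hsph1 was 4.54-fold, Cryab 2.55-fold, Hspd1 2.55-fold, Hsp90aa1 2.51-fold and Hspb1 2.27-fold higher in the irradiated primary, and Zfand2a was 2.28-fold higher in the non-irradiated one. Hspe1 (1.68-fold higher) and Bag3 (a difference of 0.14) stayed within 2-fold. Between nodules, 0 of the 8 genes differed 2-fold in any of the 3 pairs, where 5.18%, 7.02% and 2.24% of all features did, so a count of 0 in 8 is near the background. The largest difference was 0.40, for Hsph1. The median range over the nodules was 0.14 for these genes, 0.17 for the 67 other chaperone genes described below and 0.31 over all features.

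The wider chaperone network held 67 tested genes beside the 8, in lists by family. Against the non-irradiated primary 16 of them rose and 2 fell, and 49 did not pass, with a median of 0.10. Over all features 9.74% rose and 8.86% fell, beside 23.9% and 2.99% of the 67. Against the irradiated primary 1 fell, 1.49% of the 67 beside 2.81% of all features, and 66 did not pass, with a median of -0.032. The fall was Dnajc5, a J-domain protein of secretory vesicles, which fell by 1.83 (adjusted p = 0.0113) and by 1.06 against the non-irradiated primary (adjusted p = 0.0161).

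Of the 3 proteins of the 110 kDa family, 2 rose against the non-irradiated primary. For this list and those below, 9.74% of all features rose and 8.86% fell in that comparison. Hspa4 read 2.18, 2.33 and 2.25 in the nodules, 2.17 in the irradiated and -0.28 in the non-irradiated primary. It rose by 2.54 (SE 0.12, adjusted p = 0.00761), beside 2.42 for Hsph1. In the 70 kDa family, 1 of 3 tested genes rose, Hspa14 by 0.71 (adjusted p = 0.0439). The constitutive Hspa8 differed by 0.094 (95% interval -0.25 to 0.44) and did not pass (adjusted p = 0.649). This is its brightest probe, and its dimmer probes gave 0.16, 0.48 and 0.40. The inducible Hspa1a and Hspa1b had no matched probe. Of 12 J-domain genes 2 rose, Dnaja1 by 0.80 (adjusted p = 0.0205) and Dnajb2 by 0.64 (adjusted p = 0.0338), and Dnajc5 fell, a share near the 18.6% called over all features. Among 10 mitochondrial chaperones and proteases 3 rose, Hspd1, Hspe1 and the J-domain protein Dnaja3 (0.97, adjusted p = 0.0301). Hspd1 and Hspe1 were already counted above.

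Of the co-chaperones of the 70 and 90 kDa proteins, the largest family list, 9 of 19 rose against the non-irradiated primary and 0 fell. Over all features 9.74% rose and 8.86% fell. The median was 0.51 beside 0.038 over all features. Bag3 is one of the 9. Ppid, a cyclophilin that binds the 90 kDa chaperones, rose by 1.96 (SE 0.12, adjusted p = 0.00834), and Stip1, which bridges 70 and 90 kDa proteins, by 1.27 (adjusted p = 0.0149). Bag2 rose by 0.94, St13 by 0.80, Chordc1 by 0.80, Ahsa1 by 0.70, Fkbp4 by 0.58 and Ptges3 by 0.51. Against the irradiated primary 0 of the 19 passed, where 3.73% of all features did. In the cytosolic TRiC chaperonin, Cct5 rose by 0.70 (adjusted p = 0.0309) and Cct8 fell by 1.01 (adjusted p = 0.0187) against the non-irradiated primary. The other 6 of 8 subunits did not pass, and 18.6% of all features were called there. Several of these calls did not hold in all 12 alternatives: without nodule 2 none of the genes named in the wider lists passed. Hspa14 and Ahsa1 lost their call in 6 alternatives, Ptges3 in 5, and St13, Fkbp4, Cct5 and Dnajb2 in 4.

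**Figure D4:**
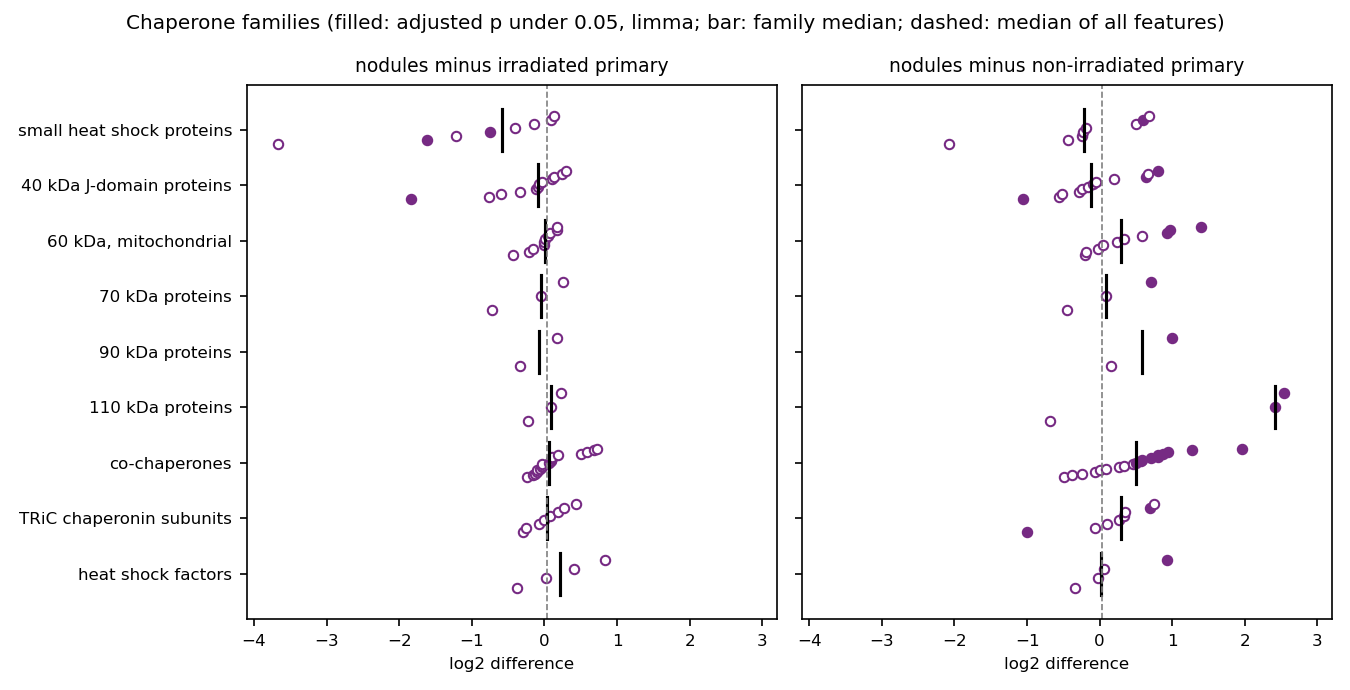
Log2 differences (horizontal axis) of the nodules from the irradiated (left) and the non-irradiated primary (right) for the tested genes of 9 chaperone lists (rows). Filled points passed limma at an adjusted p under 0.05, black bars are list medians and the dashed line is the median of all features; the 110 kDa median is 2.42 on the right and 0.086 on the left.

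HSF1 itself and its targets were listed separately. Hsf1 read 2.32, 2.10 and 2.19 in the nodules, 1.37 in the irradiated and 1.27 in the non-irradiated primary. All nodules lay above both primaries. It rose by 0.93 against the non-irradiated primary (SE 0.14, adjusted p = 0.0199), and the 0.83 against the irradiated primary did not pass (adjusted p = 0.0524). Hsf2 differed by 0.40 and -0.34 from the irradiated and the non-irradiated primary and did not pass. Its dimmer probe gave 0.14 and 0.43. Of 24 tested HSF1 targets, which hold the 8 genes above, 12 rose, 1 fell and 11 did not pass against the non-irradiated primary, with a median of 0.64. Over all features 9.74% rose and 8.86% fell, with a median of 0.038. The 8 genes already counted gave 6 of the 12 rises and the 1 fall. Serpinh1, the collagen chaperone HSP47 of the endoplasmic reticulum, rose by 2.77 (SE 0.22, adjusted p = 0.0101). Against the irradiated primary 0 of the 24 rose and 2 fell, Hspb1 and Cryab, with a median of -0.045. There 0.91% of all features rose and 2.81% fell, with a median of 0.034. Irradiated over non-irradiated, 7 of the 24 were at least 2-fold higher (9.3% of all features) and 1 was at least 2-fold lower (7.12% of all features). Of the promoter windows of the listed HSF1 targets, 7 of 22 held the 3-unit letters, against 0.798% of all windows. The element shared by Hspd1 and Hspe1 enters these 7 from both sides.

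Other markers also differed in the non-irradiated primary. The summed level of 10 macrophage markers was 24.8 there, 52.8 in the irradiated primary and 43.2 to 48.9 in the nodules. C1qa and C1qb made up most of this sum, and single macrophage markers moved in both directions. Of 9 tested, 4 rose and 2 fell in the nodules against the non-irradiated primary, where 9.74% of all features rose and 8.86% fell. The summed level of 6 erythroid markers was 39.0 in the non-irradiated and 106 in the irradiated primary and 313 to 563 in the nodules. Between 8 and 9 of the macrophage and 4 and 5 of the erythroid markers were well above background on an array. Their part in the chaperone differences was not tested. Of 13 housekeeping genes 0 rose and 1 fell in the nodules against this primary, with a median of 0.031. Of 13 glial and glioma markers, Gfap and Olig2 were not well above background on any array, and the summed level was 76.7 to 98.2 in the nodules, 69.9 in the irradiated and 77.9 in the non-irradiated primary. Single markers moved in both directions. Sox10 read -4.09 to -1.47 in the nodules, -0.23 in the irradiated and 2.10 in the non-irradiated primary, and Nes 0.46 to 1.72, 3.02 and 3.60, while Vim read 5.48 to 6.23, 5.45 and 5.04. Of 10 glial and glioma markers compared between primaries, 4 were at least 2-fold lower in the irradiated one, and their part in the chaperone differences was not tested. Markers of alveolar type 2 and club cells were summed at 67.6, 20.4 and 0.313 in nodules 1, 2 and 3, 0.419 in the irradiated and 1.36 in the non-irradiated primary. Alveolar type 1 markers were summed at 52.6, 40.9 and 38.3 in the nodules, 29.2 in the irradiated and 40.001 in the non-irradiated primary. Cav1 and Pdpn made up most of each sum, and Cav1 read 4.79 to 5.14 in the nodules. Ager read 1.88, -0.18 and -3.16 in nodules 1, 2 and 3, -3.46 in the irradiated and -1.68 in the non-irradiated primary. Hopx, Aqp5, Clic5 and Akap5 also read highest in nodule 1 and lowest in nodule 3 among the nodules. The part of lung cells in the chaperone differences was not tested.

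Profiles over the 5 arrays, each centred on its own mean, were compared by their root mean square distance. Of the 8 genes, Hsp90aa1 and Hspd1 were the closest pair (0.19 log2 units), followed by Hspd1 and Hspe1 (0.21), and Hsph1 and Zfand2a were the farthest apart (1.45). Many other genes were closer: among the named genes the nearest fellow member took place 270 for Hsp90aa1, 239 for Hspd1, 154 for Hsph1, 166 for Cryab, 635 for Hspb1 and 8378 for Zfand2a. Among 11090 other named genes, Hsph1 was nearest to Hras (0.10), Mrm2 (0.13) and Hspa4 (0.13). Hsp90aa1 was nearest to C5h1orf50 (0.038), Cs (0.057) and Bag2 (0.058), and Hspd1 to Ube4b (0.043), Nup98 (0.050) and Strbp (0.061). Cryab was nearest to Sec24a (0.057), Adra1a (0.061) and Zfp612 (0.065), Hspb1 to Slc44a3 (0.10) and Rab40b (0.10) after Ntf4, which was well above background on 1 array only and gets no distance, and Zfand2a to Tgm1, Kpna5 and Pdik1l (0.043, 0.044 and 0.060). With 5 arrays such likeness is a description only.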

How the data were processed

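The deposited intensity values are spot signals of 5 arrays on 1 slide that Agilent Feature Extraction 11.0 corrected for background within each array, per the file headers. The deposited flags (well above background, outlier) are other values of 0 or 1 from the same software, per the file headers. The deposited matrix of log2 values has no processing note from the authors in the sources used here, and served as an alternative.

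Outlier spots (0.603 to 0.865% of gene spots) were left out, log2 signals were averaged over the spots of a probe, less the 75th percentile of their array. Saturated spots numbered 0, and 69.8 to 73.5% of gene spots were well above background. The number of arrays limits the precision. Probes were named through RefSeq accessions (18354 of 30363 usable probes). A feature was tested when all its spots were well above background on all arrays of a group. limma 3.58.1 in R 4.3.3 fitted 3 group means with an intensity trend, and Benjamini-Hochberg adjusted p under 0.05 was called. On simulated arrays of 18899 features for nodules against the irradiated primary, 57% of changes of 1.5 and 96% of changes of 3 (log2) were called, with 14 false calls. Nodules lay in one slide row and primaries in another, so row and group cannot be told apart. Whether rat probes also bound RNA of the mouse host was not tested, which bears on the heat shock genes and on the marker sums of host tissues.

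The members and lists were chosen with earlier results of these data known. All 9 members are named. Of each list, genes past limma against either primary are named, or else that with the largest difference from the irradiated primary, and always Hspa8, Hsp90ab1, Hspa4, Hsf1 and Hsf2. Near profiles are the 3 closest named genes for members with a range of at least 1. Promoters came from RefSeq (GRCr8). The array design rests on an older build, so no gene coordinates are given.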

Additional observations from a re-analysis of the deposited data

How the results depend on the processing

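In 12 alternatives no called difference of a named gene changed direction, and the 5 arrays limit every call. The members called against the irradiated primary numbered 1 instead of 2 with array median scaling, quantile normalization, no filter on dim probes, no intensity trend or the deposited matrix. With normexp they numbered 3, Bag3 being the added rise. Leaving out each nodule in turn gave 0 to 3 members against the irradiated and 0 to 8 against the non-irradiated primary, and 0 to 3188 and 0 to 6402 of all features, where the full set gave 704 and 3515. Without nodule 2 no feature passed by limma (2688 and 4981 at an unadjusted p under 0.05). The other chaperone genes called, 1 and 18 with all arrays, ranged from 0 to 12 and 0 to 26. They numbered 4 with normexp (2 higher and 2 lower) against the irradiated primary, and 11 against the non-irradiated one with array median scaling or no intensity trend. Features called against the irradiated primary fell to 438 with array median scaling and 399 without the trend. Features past 2-fold between primaries fell from 3028 to 1495 with normexp, which was run on median spot signals and adds an offset of 50, so input, background method and offset changed together. Differences from the irradiated primary that did not pass changed sign in a few settings: with array median scaling Zfand2a read 0.049, Chordc1 0.061, Dnaja1 0.061, Hspa8 0.047 and Ptges3 0.028, and with the mean of all probes Hspa8 read 0.054. Leaving out 1 nodule gave Zfand2a -0.12 to 0.032 and Dnaja1 -0.066 to 0.0080. With the mean of all probes Hsf2 read 0.046 against the non-irradiated primary. The probes of Hsf2 gave -0.34 and 0.43 there. Array median scaling raised every difference from the irradiated primary by 0.093, which gives the values listed for that setting. The cause of the other moves was not tested. No paired analysis was possible because each primary has 1 array and shares no pair of replicate numbers with the nodules.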

Other observations

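Hspb8 and Hmox1, stress genes outside the set described, had a wide range over the nodules; they and Fkbp5 were chosen after their values were seen. Hspb8, a small heat shock protein that works with Bag3, read -0.17 in nodule 1 and 1.45 and 1.68 in nodules 2 and 3, beside 0.90 in the irradiated and 0.31 in the non-irradiated primary. Hmox1, the haem oxygenase, read 1.53 in nodule 1 and 0.37 in nodules 2 and 3, with 2.07 in the irradiated and -0.20 in the non-irradiated primary. Hspb8 had the widest range over the nodules, 1.85, of the 75 chaperone genes tested. Between the primaries Fkbp5, a glucocorticoid-induced co-chaperone, read lower in the irradiated one: it was 4.19 in the non-irradiated and 3.11 in the irradiated primary, and 3.64 to 4.02 in the nodules. No test was made of the differences between nodules or between primaries. In limma neither Hspb8, Hmox1 nor Fkbp5 passed against either primary.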
